A study of Mus musculus with 6 samples.

Results

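The 9 genes described here are those of the Nodal signalling axis that were named for this purpose by symbol: Nodal, Lefty1, Lefty2, Tdgf1, Acvr2b, Smad2, Smad3, Foxh1 and Smad7. All 9 were found among the 22602 genes of the expression table, and all 9 had a mean of at least 1 RPKM (reads scaled to a kilobase of cDNA and to library depth), as had 11595 genes in all. The question was whether their mRNA levels differed in mouse embryonic stem (ES) cells that overexpressed Sim2, a basic helix-loop-helix transcription factor. The Sim2 group was 1 culture each of 3 clones, A6, B8 and C4. In them a Flag-tagged Sim2, followed by an IRES and the Venus reporter, was placed at the ROSA26 locus behind a promoter that is silenced by tetracycline. The control group was 3 cultures of the parental EB3 line, called EB3-0, EB3-1 and EB3-2, which has the inducible system and Venus without Sim2. All 6 cultures were grown on gelatin in serum with LIF and had spent 26 h in tetracycline-free medium at the time of RNA extraction, so clone and transgene cannot be told apart, and the controls are repeat cultures of a single line.

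Nodal is a secreted ligand of the TGF-beta family that instructs mesoderm and endoderm formation in the early embryo and sets the left-right axis. It binds activin receptors together with a co-receptor of the EGF-CFC family, and the receptor complex phosphorylates SMAD2 and SMAD3, which enter the nucleus with SMAD4 and reach many target genes through the DNA-binding partner FOXH1. Among those targets are Nodal itself and the Lefty genes, whose secreted products block the ligand, and mouse ES cells in serum express much of this circuit.

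Of the 9 genes, Foxh1 rose in the Sim2 clones, by 0.72 on the log2 scale or 1.65 times in RPKM, and the other 8 did not pass the test. Foxh1 was thus 1 called gene among 9 at an adjusted p under 0.05 (limma on log2(RPKM + 0.5), Benjamini-Hochberg adjustment over all 11595 genes), beside 81 called genes or 0.699% of all genes tested. The log2 fold changes of the 9 genes ran from -0.21 for Tdgf1 to 0.72 for Foxh1 with a median of 0.09, against a median of -0.01 over all genes tested. In 3 of the 9, Foxh1, Tdgf1 and Acvr2b, the values of the groups did not overlap, which 26.1% of all tested genes showed. Each gene of 3 against 3 libraries can reach no p under 0.1 in an exact permutation test, so only the model across all genes can make a call.

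**Figure D1:**
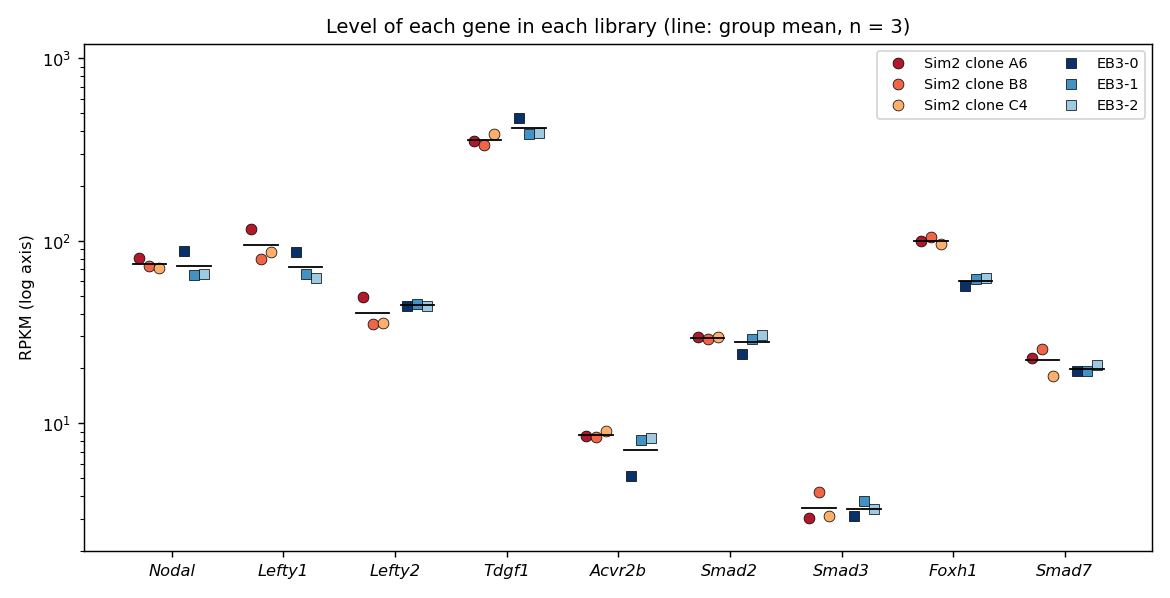
RPKM (log axis) of the 9 genes in each of the 3 Sim2 clones (circles) and the 3 EB3 cultures (squares), with a line at each group mean. Foxh1 lay between 95.7 and 104.6 RPKM in the clones and between 56.8 and 63.0 in EB3, while Nodal, Lefty1, Lefty2, Smad2, Smad3 and Smad7 overlapped between the groups.

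The depth was 25095861 to 28269340 reads per library over the listed genes, so that 1 read in a cDNA of 2 kb was worth 0.0177 to 0.0199 RPKM, and the fewest reads behind a value of the 9 genes were the 238 of Acvr2b in EB3-0. Sim2 itself stood at 196.0, 212.4 and 168.4 RPKM in A6, B8 and C4 and at 0.130, 0.092 and 0.104 in EB3-0, EB3-1 and EB3-2. The ES cell markers Pou5f1, Sox2, Nanog, Zfp42 and Esrrb were abundant in all 6 libraries, and none of the 5 was called. Zfp42 was lower in every clone than in every control (log2 fold change -0.31, adjusted p = 0.145, limma). Esrrb was higher in every clone (log2 fold change 0.31, adjusted p = 0.346, limma), and the groups overlapped for Pou5f1, Sox2 and Nanog. EB3-0 stood apart from the other EB3 cultures in several of the genes below, and the value without it is given for some of them.

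The ligand, Nodal (chromosome 10, 60880720 to 60888085, plus strand, build mm9), was measured at 80.9, 72.5 and 71.4 RPKM in A6, B8 and C4 and at 88.1, 65.2 and 65.9 in EB3-0, EB3-1 and EB3-2. The highest value was a control, EB3-0, the next 3 were the clones, and the groups overlapped. Group means were 74.9 ± 5.19 (SD, n = 3) and 73.1 ± 13.0 RPKM (SD, n = 3). The log2 fold change was 0.05 with a 95% interval from -0.25 to 0.35 (adjusted p = 0.883, limma). Without EB3-0, the log2 fold change of Nodal was 0.19 (adjusted p = 0.169, limma).

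Lefty1 and Lefty2 are neighbouring copies on chromosome 1 (182865170 to 182868532 and 182823250 to 182829233, both plus strand, mm9) that encode secreted antagonists of Nodal. Lefty1 stood at 116.9, 79.6 and 87.3 RPKM in A6, B8 and C4, and at 86.9, 66.1 and 62.7 in EB3-0, EB3-1 and EB3-2. A6 was the highest library and B8 lay below EB3-0, so that the groups overlapped. The log2 fold change of Lefty1 was 0.39 ± 0.17 (SE), with a 95% interval from just below 0 to 0.78, and did not pass the test (adjusted p = 0.285, limma). Leaving out EB3-0 gave 0.53 (adjusted p = 0.0936, limma), again short of a call, where 5.99% of all tested genes were called. Leaving out A6 lowered it to 0.23 (adjusted p = 0.521, limma). None of the 20 tested genes nearest to Lefty1 had a log2 fold change above its own.

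Lefty2 was the lower of the pair, at 49.6, 35.0 and 35.7 RPKM in A6, B8 and C4 and at 44.0, 45.1 and 44.2 in EB3-0, EB3-1 and EB3-2. Clone A6 was above every control and clones B8 and C4 below every control. The spread among the clones, a coefficient of variation of 20.5%, was far wider than the 1.36% among the controls. The log2 fold change of Lefty2 was -0.17 ± 0.14 (SE) with a 95% interval from -0.48 to 0.15 (adjusted p = 0.573, limma). Leaving out A6 gave -0.33, leaving out B8 -0.08 and leaving out C4 -0.09, with no call.

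The coding sequences of the pair are equally long, 1107 bases in the mm9 gene models (GENCODE), and differ at 90 positions, an identity of 91.9%. Reads of the length sequenced here, 100 bases, would match both copies within 2 mismatches at 332 of 1008 coding windows or 32.9%. The windows were cut from the spliced sequence. The paper names 2 mismatches for reads of its SIM2 binding experiment but only default settings for these mRNA reads, whose limit may differ. A window with a difference still fits its own copy better, so 32.9% is not the share of ambiguous reads. The longest stretch without a difference was 140 bases. The stretch of 90 bases with the most differences, at coding bases 35 to 124 counted from the A of the start codon, is shown because reads from it tell the copies apart. Capitals mark the 27 positions that differ.
Lefty1: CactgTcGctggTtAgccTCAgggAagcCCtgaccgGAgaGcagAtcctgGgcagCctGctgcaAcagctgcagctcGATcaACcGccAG
Lefty2: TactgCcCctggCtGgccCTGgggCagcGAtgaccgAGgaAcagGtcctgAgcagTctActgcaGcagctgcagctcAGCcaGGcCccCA
How reads that fit both copies were shared out is not given in the sources used here. The separate levels of Lefty1 and Lefty2 are therefore uncertain. Their sum was 115 to 166 RPKM in the clones and 107 to 131 in EB3. It too depends on the sharing, because RPKM is per length and the cDNA lengths differ, 1604 and 2461 bases. The ratio of Lefty1 to Lefty2 was 2.36, 2.27 and 2.45 in A6, B8 and C4 and 1.97, 1.46 and 1.42 in EB3-0, EB3-1 and EB3-2. Every clone lay above every control, with EB3-0 between the clones and the other controls. The difference in the log2 ratio was 0.55, and 0.70 without EB3-0. With all 6 libraries the exact two-sided permutation test gave the smallest p it allows, 0.1, or 0.2 after adjustment over the 6 ratios examined. The share of all Lefty reads that came from windows common to both copies was not measured.

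Tdgf1, which encodes the EGF-CFC co-receptor also called Cripto, was the most abundant of the 9 genes per length in every library. It was measured at 353.5, 334.3 and 384.5 RPKM in A6, B8 and C4 and at 470.5, 386.1 and 388.3 in EB3-0, EB3-1 and EB3-2. All clones were below all controls, but C4 and EB3-1 were only 1.65 RPKM apart. The log2 fold change was -0.21 ± 0.11 (SE), with a 95% interval from -0.47 to 0.05 (adjusted p = 0.384, limma), and it was -0.12 without EB3-0 (adjusted p = 0.333, limma). The spliced sequence of Tdgf1 has a near-copy on chromosome 16, in 2 stretches from 3730260 to 3732695 (mm9) where the table lists no gene. It matches 96.6% of the 1925-base transcript at 92.9% to 96.7% identity. Of 1826 windows of 100 bases in the transcript, 674 or 36.9% fit this copy within 2 mismatches. Inside an exon, a window with a mismatch still fits Tdgf1 itself better, so this is not the share of ambiguous reads. A window across an exon junction runs on in the copy but is split in the Tdgf1 gene, and such windows were not counted apart. How this affected reads mapped to the genome was not tested. How reads that fit both were counted is not given in the sources used here.

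The gene lies on chromosome 9, 110842112 to 110848662, minus strand (mm9). It is on the study's list of genes nearest to a SIM2 binding site, as are Smad2 and Smad7 of these 9, beside 10.1% of all tested genes. The 250 bases before its start (RefSeq, build GRCm38.p6, chr9:110946159-110946408, minus strand, read 5′ to 3′ along the gene) are shown with those of Nodal (GRCm38.p6, chr10:61417722-61417971, plus strand), because co-receptor and ligand form the input of the pathway. Both strands were searched for ACGTG, the core bound by SIM proteins with ARNT, for AATNNACA, which holds the outer letters of the FOXH1 element, and for CAGAC, a SMAD element. No match overlapped another, and capitals mark the matches.
Tdgf1: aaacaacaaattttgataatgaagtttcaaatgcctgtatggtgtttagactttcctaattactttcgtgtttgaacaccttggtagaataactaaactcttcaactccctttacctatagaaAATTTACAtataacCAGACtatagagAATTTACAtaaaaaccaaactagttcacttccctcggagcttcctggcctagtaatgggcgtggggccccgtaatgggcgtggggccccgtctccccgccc
Nodal: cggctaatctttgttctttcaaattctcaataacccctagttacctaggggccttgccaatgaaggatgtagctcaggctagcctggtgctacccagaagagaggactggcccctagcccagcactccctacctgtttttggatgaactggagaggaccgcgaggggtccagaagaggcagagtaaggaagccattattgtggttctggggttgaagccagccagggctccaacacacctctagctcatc
The window before Tdgf1 held 2 copies of AATNNACA, starting 127 and 101 bases before the start of the gene, with 1 CAGAC between them and no ACGTG. Of 27025 promoter windows of this length, 11.1% held AATNNACA at least once and 1.14% held 2 or more, 42.1% held CAGAC, and 16.6% held ACGTG. None of the 3 motifs was found in the window before Nodal, and none in that of Smad3. The window of Acvr2b held 1 CAGAC. Foxh1, Lefty1 and Lefty2 had no entry in the promoter table.

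Acvr2b, a type II activin receptor (chromosome 9, 119311619 to 119342624, plus strand, mm9), was a gene of low level, at 8.53, 8.37 and 9.13 RPKM in A6, B8 and C4 and at 5.13, 8.11 and 8.31 in EB3-0, EB3-1 and EB3-2. The groups did not overlap, but B8 and EB3-2 differed by only 0.0621 RPKM, and the difference in means came from EB3-0. The log2 fold change of 0.28 (adjusted p = 0.465, limma) became 0.07 without that library (adjusted p = 0.652, limma).

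Smad2 was the main receptor-regulated effector by level, at 29.6, 28.9 and 29.6 RPKM in A6, B8 and C4 and at 24.1, 28.8 and 30.4 in EB3-0, EB3-1 and EB3-2 (chromosome 18, 76401579 to 76465385, plus strand, mm9). The clones lay inside the range of the controls, and the log2 fold change was 0.09, with a 95% interval from -0.16 to 0.33 (adjusted p = 0.719, limma). Without EB3-0, the lowest library, Smad2 differed by -0.012 (adjusted p = 0.929, limma). Smad3, its close relative (chromosome 9, 63494574 to 63605801, minus strand), had the lowest level of the 9 genes, at 3.05, 4.22 and 3.10 RPKM in the clones and at 3.09, 3.75 and 3.39 in the controls. Its log2 fold change was 0.01 with a 95% interval from -0.37 to 0.39 (adjusted p = 0.988, limma). Smad2 exceeded Smad3 by 6.84 to 9.74 times in the clones and by 7.69 to 8.97 times in the controls, and the log2 ratio differed by 0.08 between the groups (exact permutation p = 0.8, 0.9 adjusted over the 6 ratios).

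Foxh1, the forkhead partner of SMAD2 and SMAD3, was measured at 100.1, 104.6 and 95.7 RPKM in A6, B8 and C4 and at 56.8, 62.0 and 63.0 in EB3-0, EB3-1 and EB3-2. Every clone was above every control, with a gap of 32.8 RPKM between the lowest clone and the highest control. Group means were 100.1 ± 4.44 (SD, n = 3) and 60.6 ± 3.30 RPKM (SD, n = 3). Foxh1 differed by 0.72 ± 0.085 (SE) on the log2 scale, with a 95% interval from 0.53 to 0.92 (adjusted p = 0.0211, limma), or 0.68 without EB3-0 (adjusted p = 0.0117, limma). The call was lost without any 1 of A6, B8, C4, EB3-1 or EB3-2: the adjusted p ranged from 0.0643 to 0.104 while the log2 fold change stayed between 0.69 and 0.75. It was also lost when EB3-1 and EB3-2 were averaged to 1 sample, with a log2 fold change of 0.74 and an adjusted p of 0.101 (limma). Calls over all tested genes fell too, from 81 to between 6 and 20 without 1 of those libraries and to 6 with that averaging. Without EB3-0 they rose to 694.

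Foxh1 lies on chromosome 15 (76498737 to 76500303, minus strand, mm9), where the genes around it were also higher in the clones. Of the 10 tested genes on each side of it, between 76332445 and 76731727, all 20 had a log2 fold change above 0, from 0.15 for Lrrc14 to 1.02 for Slc39a4, with a median of 0.29. Slc39a4, a zinc transporter gene, was called among them, at 62.5, 59.2 and 49.4 RPKM in A6, B8 and C4 against 27.9, 28.6 and 26.8 in EB3-0, EB3-1 and EB3-2 (adjusted p = 0.0114, limma). Of the 20, Slc39a4 and Arhgap39 (0.91) had a larger log2 fold change than Foxh1. The median over the 470 tested genes of chromosome 15 was 0.21, against medians between -0.04 and 0 on the chromosomes of the other 8 genes. The neighbours' median in A6, B8 and C4, each against the mean of EB3, was 0.41, 0.31 and 0.30.

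**Figure D2:**
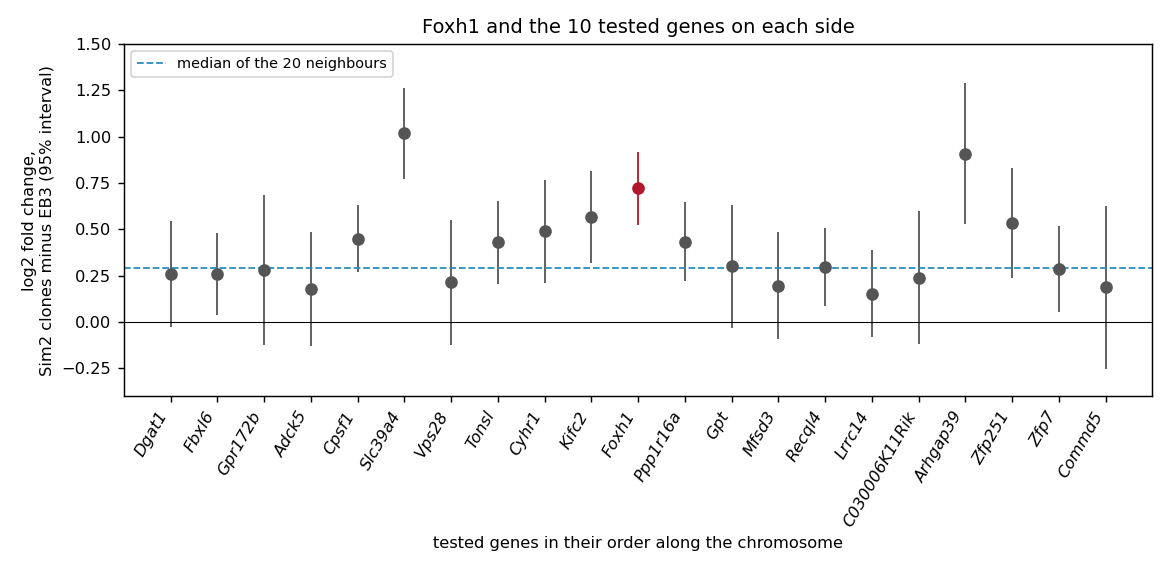
log2 fold change (Sim2 clones minus EB3) with its 95% interval for Foxh1 (red) and the 10 tested genes on each side, in their order along chromosome 15; the dashed line is the median of the 20 neighbours, 0.29. All of them lie above 0, with Foxh1 at 0.72 and Slc39a4 and Arhgap39 above it.

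Measured against the median of its 20 neighbours within each library, Foxh1 was higher by 2.31, 2.43 and 2.22 on the log2 scale in A6, B8 and C4 and by 1.80, 2.05 and 2.06 in EB3-0, EB3-1 and EB3-2. The clones again lay above the controls, by 0.35, less than the 0.72 of the unadjusted comparison (exact permutation p = 0.1, the smallest possible). Set instead against the neighbours' median log2 fold change of 0.29, that of Foxh1 was higher by 0.43. How much of the change in Foxh1 belongs to the rise of this stretch of chromosome 15 was not tested further, and since each clone carries both the transgene and the raised stretch, these cannot be told apart. The gene next to Foxh1, the kinesin gene Kifc2, runs towards it on the opposite strand and ends 110 bases from it, and its log2 fold change was 0.57 (adjusted p = 0.0684, limma). Whether counting used strand is not given in the sources used here, but the listed gene bodies do not overlap.

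The mean order per length was Tdgf1, Nodal, Lefty1, Foxh1, Lefty2, Smad2, Smad7, Acvr2b and Smad3 in EB3, where Nodal, Lefty1 and Foxh1 followed each other and the ranges of Nodal and Lefty1 overlapped, as did those of Lefty1 and Foxh1. In the clones Foxh1 came second, its range overlapping that of Lefty1 (79.6 to 116.9 RPKM), with Nodal behind both. The ratio of Foxh1 to Smad2 was 3.38, 3.62 and 3.23 in A6, B8 and C4 and 2.36, 2.15 and 2.07 in EB3-0, EB3-1 and EB3-2, without overlap. The difference in the log2 ratio was 0.63 (exact permutation p = 0.1, 0.2 adjusted over the 6 ratios).

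Smad7, the inhibitory SMAD that targets activated receptors, was at 22.9, 25.5 and 18.1 RPKM in A6, B8 and C4 and at 19.4, 19.4 and 20.9 in EB3-0, EB3-1 and EB3-2 (chromosome 18, 75527019 to 75555588, plus strand, mm9). The clones spread to both sides of the controls, with C4 below all of them. Smad7 had a log2 fold change of 0.14 with a 95% interval from -0.16 to 0.45 (adjusted p = 0.623, limma). It was 0.04 without B8 and 0.28 without C4. Relative to Smad2 the log2 ratio of Smad7 differed by 0.06 between the groups (exact permutation p = 0.9, also 0.9 adjusted over the 6 ratios).

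The level of the inhibitor and of the co-receptor relative to the ligand was compared within libraries. Lefty1 was 1.45, 1.10 and 1.22 times Nodal in A6, B8 and C4 and 0.986, 1.01 and 0.952 times in EB3-0, EB3-1 and EB3-2. All clones lay above all controls, with B8 the nearest to them, and EB3-0 did not stand apart in this ratio. The difference in the log2 ratio was 0.34 (exact permutation p = 0.1, 0.2 adjusted over the 6 ratios). Tdgf1 was 4.37, 4.61 and 5.39 times Nodal in the clones and 5.34, 5.92 and 5.89 times in the controls, where C4 overlapped EB3-0. That log2 ratio differed by -0.26 (exact permutation p = 0.2, 0.3 adjusted over the 6 ratios).

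**Figure D3:**
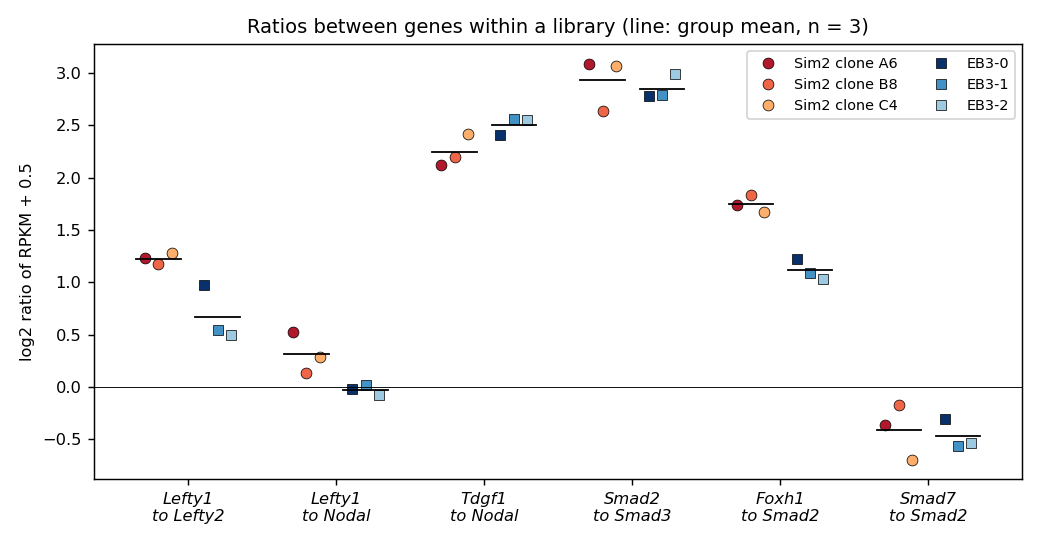
log2 ratio of RPKM + 0.5 between pairs of genes in each Sim2 clone (circles) and EB3 culture (squares), with a line at each group mean. The ratios of Lefty1 to Lefty2, Lefty1 to Nodal and Foxh1 to Smad2 did not overlap between the groups, and the other 3 did. How often ratios of other gene pairs fail to overlap was not examined.

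Beyond the 9, a list of 44 other genes of the Nodal and activin pathway was examined, of which 27 had a mean of at least 1 RPKM. None of the 27 was called (limma), and 4 had an unadjusted p under 0.05, where 17.8% of all tested genes had one. In the clones 18 had a higher and 9 a lower mean, where 49.1% of all tested genes had a higher one. The median of the 27 on the log2 scale was 0.04, against -0.01 over all tested genes. The other 17 were not tested, and none of these exceeded 1.41 RPKM in any library. Among the ligands, Gdf3, a Nodal-related factor of ES cells, was the most abundant, at 94.6 to 112.6 RPKM in the clones and 104.1 to 110.6 in EB3, with a log2 fold change of -0.06 (adjusted p = 0.783, limma). Inhbb, an activin subunit gene, was at 40.5 to 50.3 RPKM in the clones and 34.7 to 44.3 in EB3 (log2 fold change 0.24, adjusted p = 0.366, limma), and Tgfb1 was at 3.69 to 8.16 and 3.95 to 5.16 RPKM (log2 fold change 0.25, adjusted p = 0.655, limma). The other activin subunit gene on the list, Inhba, and the TGF-beta genes Tgfb2 and Tgfb3 did not exceed 0.293 RPKM in any library.

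Of the proprotein convertases that cleave the Nodal precursor, Pcsk6 was the more abundant, at 13.6 to 20.9 RPKM in the clones and 13.3 to 14.0 in EB3, with a log2 fold change of 0.27 (adjusted p = 0.399, limma) that was 0.11 without B8 and 0.41 without C4. Furin, the other, was at 4.79, 9.62 and 5.16 RPKM in A6, B8 and C4 and at 2.98, 3.18 and 3.27 in EB3-0, EB3-1 and EB3-2. Its groups did not overlap and its log2 fold change of 0.88 was the largest of the list, but B8 was far above the other clones and the adjusted p was 0.126 (limma). The type I receptor gene Acvr1b, which also lies on chromosome 15, stood at 15.9, 18.04 and 14.4 RPKM in A6, B8 and C4 and at 10.7, 12.5 and 13.5 in EB3-0, EB3-1 and EB3-2. Its log2 fold change was 0.39 (adjusted p = 0.183, limma). Tgfbr1, another type I receptor gene, did not pass with all libraries (log2 fold change -0.16, adjusted p = 0.740, limma), and was the 1 gene of the list called without EB3-0, at -0.43 (adjusted p = 0.0471, limma), beside 5.99% of all tested genes.

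Among the nuclear factors, Ldb1, an adaptor protein gene, had the highest level (75.0 to 77.6 RPKM in the clones and 78.1 to 88.9 in EB3) and a log2 fold change of -0.11 (adjusted p = 0.549, limma). Among the intracellular inhibitors it was Tgif1, a homeobox corepressor gene, at 141.5, 131.0 and 137.1 RPKM in A6, B8 and C4 and at 180.7, 157.6 and 160.8 in EB3-0, EB3-1 and EB3-2. The groups did not overlap, and the log2 fold change of -0.28 did not pass (adjusted p = 0.165, limma). Of the extracellular inhibitors other than the Lefty genes, Dand5 was the most abundant, at only 1.06 to 1.81 RPKM over all libraries, and Cer1, known as a Nodal antagonist of the endoderm, was at 0 in all libraries but EB3-2, which had 0.0440 RPKM.

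Genes that Nodal signalling is known to switch on in mesoderm and endoderm were almost silent. Eomes had the highest level of those reported here, at 0.965 to 1.60 RPKM in the clones and 1.03 to 1.27 in EB3 (log2 fold change 0.17, adjusted p = 0.702, limma), and leaving out A6 gave 0.34, leaving out B8 0.08 and leaving out C4 0.09. Mixl1, T, Gsc, Foxa2, Fgf8 and Fgf5 were not tested, and none of them exceeded 0.603 RPKM in any library.

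The BMP branch, which runs in parallel through SMAD1 and SMAD5, was represented by 13 genes, of which 8 were tested and none was called (limma). Of these 8, 1 had an unadjusted p under 0.05, beside 17.8% of all tested genes. A higher mean in the clones was seen in 7 of the 8, beside 49.1% of all tested genes. The median log2 fold change of the 8 was 0.27, against -0.01 over all tested genes. Bmp4, the most abundant ligand, was at 82.1, 46.3 and 76.8 RPKM in A6, B8 and C4 and at 56.9, 55.1 and 55.3 in EB3-0, EB3-1 and EB3-2, so that B8 lay below and the other clones above the controls. Its log2 fold change of 0.25 (adjusted p = 0.551, limma) was 0.10 without A6, 0.14 without C4 and 0.51 without B8, with no call. The BMP antagonist gene Grem1 had the largest log2 fold change, 1.06 at a low level, with 1.14, 1.63 and 1.86 RPKM in A6, B8 and C4 against 0.156, 0.799 and 0.561 in EB3-0, EB3-1 and EB3-2 (adjusted p = 0.116, limma). For the most abundant receptor, effector and intracellular inhibitor genes, Bmpr1a, Smad5 and Smad6, the log2 fold changes were 0.10, -0.05 and 0.03.

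**Figure D4:**
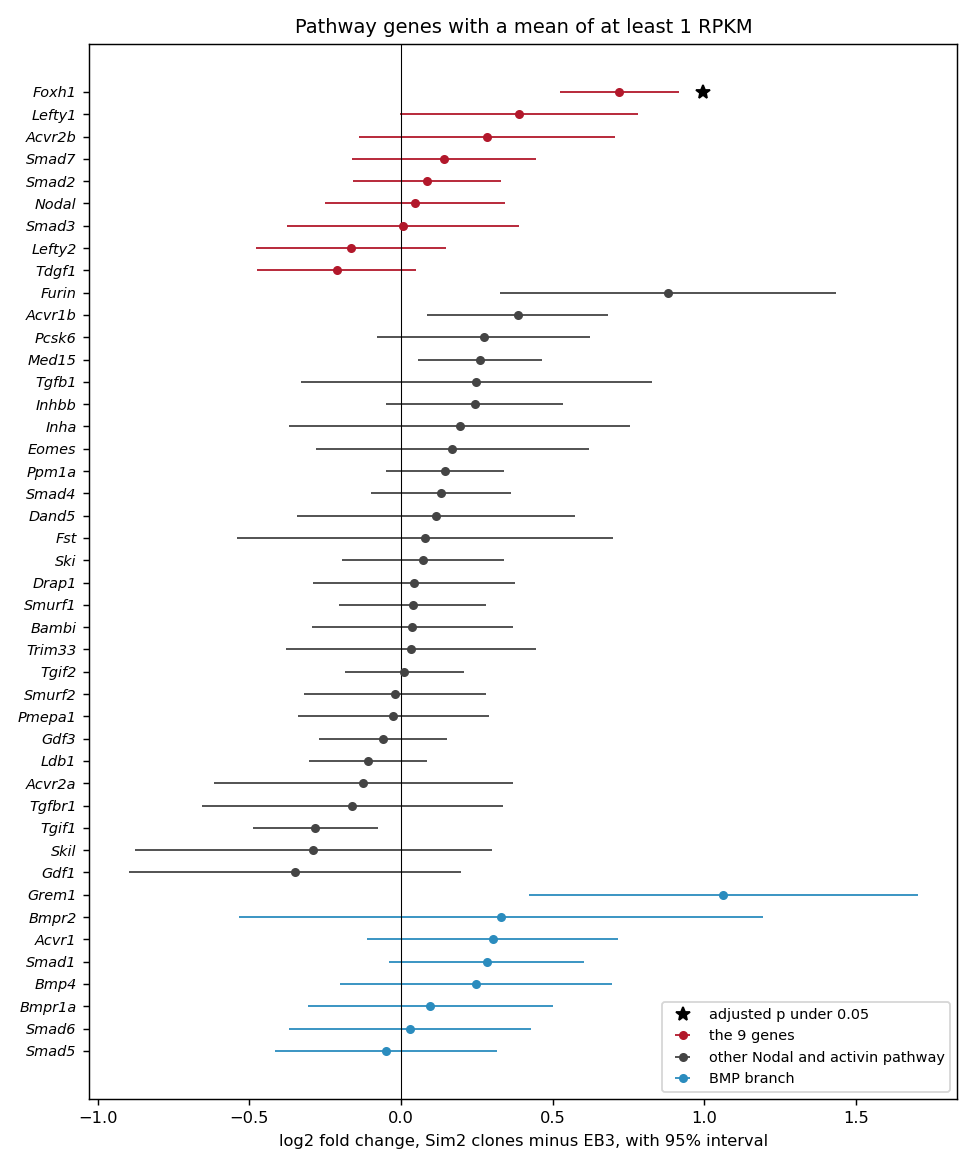
log2 fold change (Sim2 clones minus EB3) with its 95% interval for the 9 genes (red), the 27 tested genes of the wider pathway (grey) and the 8 tested genes of the BMP branch (blue); the star marks an adjusted p under 0.05. Foxh1 at 0.72 carries the star, and Furin (0.88) and Grem1 (1.06) lie farther from 0 with wider intervals.

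Markers of other cell types were examined in the same libraries. The summed level of 6 primitive endoderm markers was 4.15 to 5.12 RPKM in the clones and 2.79 to 3.36 in EB3, and that of 3 trophoblast markers was 6.33 to 12.3 and 4.76 to 5.08 RPKM. Both sums were higher in the clones, as was Foxh1, and their part in the Foxh1 result was not tested. Sox7 and Krt18 were the largest contributors, and Gata4, Gata6, Sox17 and Cdx2 were under 1 RPKM in every library. Krt18, at 5.78, 11.9 and 5.71 RPKM in A6, B8 and C4, lies on chromosome 15, as does Dab2. The trophoblast marker Elf5 was lower in the clones (0 to 0.0540 RPKM) than in EB3 (0.0662 to 0.121 RPKM). Of the 23 markers examined, ES cell markers included, 9 had a mean of at least 1 RPKM and none of these was called, and the other 14 were not tested. The mesoderm sum was 1.88 to 2.46 RPKM in the clones and 1.65 to 2.44 in EB3, and the feeder fibroblast sum was 10.9 to 14.0 and 10.2 to 13.4 RPKM, almost all of it Thy1. In bulk RNA, fewer cells of a type and less RNA per cell cannot be told apart.

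The genes whose levels followed those of Nodal, Lefty1 and Foxh1 most closely over the 6 libraries were picked by Pearson correlation of log2(RPKM + 0.5), as a description only. For Nodal they included Porcn (r = 0.994) and Ppp2r1a (0.992), both of which, like Nodal, were highest in EB3-0. For Lefty1 they were Zmym3 (0.993), Lrrc59 (0.992) and Spsb3 (0.990), all highest in A6. For Foxh1 they were Pea15a (0.994), Rab3il1 (0.994) and Slc16a9 (0.992). Like Foxh1, these were higher in each clone than in each control, which the choice by correlation favours. With 6 points that share their libraries such values are common: 117, 61 and 159 genes had r above 0.95 with Nodal, Lefty1 and Foxh1.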

How the data were processed

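Total RNA from 6 mouse ES cell cultures was sequenced as paired reads of 100 bases from TruSeq libraries. The authors mapped the reads to mm9 with BWA at default settings and deposited 1 RPKM value per gene and library, from exon coverage by a custom pipeline. Versions, strand use and the handling of reads with several matches are not given in the sources used here. A column of cDNA lengths was deposited beside them. Every RPKM value came out as whole reads within 0.01 of a read, which gave the depth.

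Values were taken as log2(RPKM + 0.5) for the 11595 of 22602 genes with a mean of at least 1 RPKM, and Sim2 clones were compared with EB3 by limma 3.58.1 (R 4.3.3, eBayes with a mean trend), with calls at a Benjamini-Hochberg adjusted p under 0.05. A fold change on this scale understates that of low genes. The script recovered known changes in simulated data. Means ± SD are in RPKM. Ratios were tested by exact two-sided permutation. Transcripts were compared with mm9 by blastn 2.17.0 (at least 90% identity over 100 bases). Named genes were the 9, Sim2, every called gene of the pathway and BMP lists with the most abundant tested gene of each role, and the 3 most correlated genes of Nodal, Lefty1 and Foxh1; Furin, Grem1, Tgfbr1, the genes around Foxh1, Inhbb, Tgfb1 and the low genes were named after their values were seen. Some genes that these rules and lists take in are not reported here by name. The genes and lists were chosen with earlier results of these data known. P-values measure the spread between 3 clones and between 3 cultures of 1 line.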

Additional observations from a re-analysis of the deposited data

How the results depend on the processing

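The alternatives were other pseudocounts (0.1 and 1), no filter, a mean RPKM of at least 5, median centring, quantile normalization, removal of length or of GC and length trends, EB3-1 and EB3-2 averaged, robust eBayes and leaving out each library. The count of called genes among the 9 fell from 1 to 0 without a filter on low values and with EB3-1 and EB3-2 averaged, and ranged from 0 to 1 when a library was left out. For Foxh1 the log2 fold change ran from 0.68 to 0.79, and 9 of 16 alternatives kept the call (adjusted p from 0.0117 to 0.104). Calls over all tested genes ran from 6 to 694 across the alternatives, against 81 in the main fit. Among the other pathway genes the count was 0, and 0 to 1 with a library left out (Tgfbr1, without EB3-0); in the BMP branch it was 0 throughout. The median of Foxh1's neighbours was 0.36 with 5 genes on each side and 0.29 with 20.

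Small values changed sign, none of them called. Nodal gave -0.023 with EB3-1 and EB3-2 averaged and -0.027 to 0.19 with a library left out. Smad3 gave -0.0084 with median centring, -0.018 with quantile normalization, -0.062 and -0.13 after removal of the length and the GC and length trends, and -0.13 to 0.080 with a library left out. Smad7 gave -0.017 after removal of GC and length trends, and Smad2 -0.012 to 0.15 with a library left out. Smad5 gave 0.037 with EB3-1 and EB3-2 averaged and Smad6 -0.070 after removal of GC and length trends. With a library left out, Smad5 ran from -0.22 to 0.061, Smad6 from -0.054 to 0.16, Bmpr1a from -0.11 to 0.23, Dand5 from -0.029 to 0.25, and the log2 ratio of Smad2 to Smad3 differed by -0.00037 to 0.23. The ratio of Smad7 to Smad2 differed by -0.0049 and -0.14 after removal of the length and the GC and length trends and by -0.062 to 0.20 with a library left out. The cause was not tested. No paired analysis was possible because the groups share no replicate that the labels pair. No group had more than 3 samples, so no library was tested as an outlier.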
